A study of Homo sapiens with 33 samples.

Results

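SCC1 and SCC25 were compared as untreated lines, across all genes, to describe how the identity of the 2 lines differed before any drug was given. Both are human head and neck squamous cell carcinoma (HNSCC) lines, and SCC1 is the line UM-SCC-1. The members were chosen by their labels: the bulk RNA-seq libraries that received PBS, the control without drug, on days 0, 1, 2, 3, 4 and 5. This gave 12 of the 33 libraries of the series, 6 of SCC1 and 6 of SCC25, with 1 library for each line and day. The other libraries hold another line, SCC6, and the arms treated with cetuximab, an antibody against EGFR. SCC25 and SCC1 were both grown in DMEM with 10% FBS, but with hydrocortisone at 0.4 μg/mL for SCC25 and 1.0 μg/mL for SCC1. The line and this steroid dose cannot be told apart. Each group is 1 cell line, so the comparison describes these 2 lines and not a class of tumours.

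Squamous epithelium is held together by tight junctions, adherens junctions and desmosomes. Its basal cells carry the transcription factor p63 and the keratins 5 and 14, and cells that leave the basal layer switch to other keratins and to proteins of the cornified envelope. Carcinoma cells can lose part of this programme through epithelial-mesenchymal transition (EMT), in which factors of the ZEB, SNAIL and TWIST families repress junction genes while vimentin, N-cadherin and matrix genes rise. The growth of HNSCC cells depends in many cases on EGFR and on the ligands that activate it, which the tumour cells often make themselves.

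Total estimated counts per library were 36336811 to 47224888 in SCC1 and 42018283 to 52144216 in SCC25, and mitochondrial genes took 4.30 to 4.71% of the counts in SCC1 and 6.17 to 7.12% in SCC25. The first principal component held 87.6% of the variance and separated the lines, and the second held 2.84%. Gene levels below are in CPM, which divides each count by the library total after trimmed-mean scaling and does not correct for gene length. Levels are thus compared between lines and not between genes. All 12 squamous epithelial markers listed for this check (TP63, KRT5, KRT14, KRT17, KRT6A, SFN, TRIM29, DSP, DSG3, CDH1, EPCAM, CDH3) were detected in every library, at 38.6 CPM or more in SCC1 and 57.9 CPM or more in SCC25. In bulk libraries, a change in the share of cells that express a gene and a change in its RNA per cell cannot be told apart. Flow cell here means the first part of the deposited library name, which was taken to name the flow cell. By this reading the 6 SCC25 libraries shared 1 flow cell. Of the SCC1 libraries, 5 were on another and that of day 5 on yet another. Among these 12 libraries the line and the flow cell thus cannot be told apart. The line difference was therefore also read from a fit over 22 libraries with flow cell as a covariate. Its flow cell terms rest on earlier against later days of SCC25 with cetuximab, and on day 5 against the other days of SCC1 with PBS. Flow cell and day thus cannot be told apart in that fit. The difference was also read within the flow cell that holds both lines. There SCC1 with PBS of days 0 to 4 meets SCC25 with cetuximab of days 3 to 5. In that fit the line and the drug cannot be told apart, and the days of the 2 lines match only in part.

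Most genes differed between the lines. Of 19032 genes tested, 7090 were higher in SCC1 (37.3%) and 7167 were higher in SCC25 (37.7%) at an adjusted p under 0.05, from the quasi-likelihood test of edgeR, adjusted by Benjamini-Hochberg. Genes that pass this test are termed called below. For 10814 of the genes tested (56.8%) the libraries of the 2 lines did not overlap, so a lack of overlap was common. A stricter test asked whether the difference exceeded 2-fold. It was passed by 1647 genes higher in SCC1 (8.65%) and 2837 genes higher in SCC25 (14.9%), so large differences were more often in the direction of SCC25. These shares over all genes, called and beyond 2-fold, are termed the background below. Adjusted p-values given below for line differences of single genes come from the test against no difference, unless the 2-fold test is named. With flow cell as a covariate 3861 genes passed this stricter test, of which 3286 were among the 4484 of the 12 libraries, 3285 of them in the same direction. Within the shared flow cell 4552 genes passed, of which 3612 were among those 4484, all in the same direction. Days stand in for replicates, and nothing states that the libraries came from separate cultures, so p-values measure the spread between these libraries, which may be technical in part.

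Genes of epithelial adhesion and polarity were mostly higher in SCC1. Of 34 members tested, 23 were called higher in SCC1 and 5 higher in SCC25 (background 37.3% and 37.7%). The 2-fold test was passed by 13 and 2 (background 8.65% and 14.9%). The median log2 fold change of SCC1 over SCC25 was 0.71, beside 0.0026 over all genes. CLDN7, a claudin of tight junctions, ranged over 99.2 to 139.7 CPM in SCC1 (median 130.1) and 3.30 to 11.8 CPM in SCC25 (median 5.26). All SCC1 libraries lay above all SCC25 libraries. CLDN7 had a log2 fold change of 4.33 ± 0.26 (SE), with an adjusted p of 8.19e-10. OCLN, the tight junction protein occludin, ranged over 23.3 to 29.8 CPM in SCC1 (median 27.0) and 1.26 to 2.21 CPM in SCC25 (median 1.61), again without overlap. OCLN had a log2 fold change of 3.99 ± 0.14 (SE), with an adjusted p of 1.56e-12. RAB25, a small GTPase of epithelial vesicle traffic, ranged over 38.1 to 50.1 CPM in SCC1 (median 47.2) and 4.18 to 6.30 CPM in SCC25 (median 4.68). RAB25 had a log2 fold change of 3.22 ± 0.11 (SE), with an adjusted p of 8.63e-13. CGN, the junction scaffold cingulin, and CRB3, a polarity protein, followed the same pattern, with medians of 24.1 CPM in SCC1 and 3.16 CPM in SCC25 for CGN, and of 6.55 CPM in SCC1 and 1.48 CPM in SCC25 for CRB3. TJP3, a further junction scaffold, was low in both lines, at 0.266 to 1.25 CPM in SCC1 (median 0.523) and 0.0204 to 0.145 CPM in SCC25 (median 0.0538). TJP3 had a log2 fold change of 3.19 ± 0.48 (SE), with an adjusted p of 2.34e-05. EPCAM, an epithelial adhesion molecule, ranged over 226 to 307 CPM in SCC1 (median 262) and 57.9 to 89.6 CPM in SCC25 (median 81.3). EPCAM had a log2 fold change of 1.74 ± 0.10 (SE), with an adjusted p of 4.92e-10. CLDN4, another claudin, ranged over 27.5 to 48.9 CPM in SCC1 (median 42.8) and 6.79 to 19.6 CPM in SCC25 (median 12.6). CLDN4 had a log2 fold change of 1.64 ± 0.22 (SE), with an adjusted p of 5.37e-06. Smaller differences in the same direction were called for CDH3, the P-cadherin gene, at 0.43, and for the splicing regulators ESRP1 and ESRP2, which set epithelial exon choice, at 0.68 and 0.61 on the log2 scale.

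The junction genes did not all follow this direction. CDH1, the E-cadherin gene, ranged over 105 to 144 CPM in SCC1 (median 114) and 236 to 330.3 CPM in SCC25 (median 259.7) and was higher in every SCC25 library. CDH1 had a log2 fold change of -1.21 ± 0.09 (SE), with an adjusted p of 1.27e-08. FXYD3, a regulator of the sodium pump, ranged over 11.9 to 22 CPM in SCC1 (median 16.1) and 60.6 to 133 CPM in SCC25 (median 72.2). FXYD3 had a log2 fold change of -2.38 ± 0.21 (SE), with an adjusted p of 7.24e-08. CLDN1 ranged over 66.2 to 145 CPM in SCC1 (median 91.7) and 126 to 204 CPM in SCC25 (median 189), with overlap of the highest SCC1 library. CLDN1 had a log2 fold change of -0.87 ± 0.16 (SE), with an adjusted p of 0.00015. Within the shared flow cell the count of epithelial members beyond 2-fold was 6 higher in SCC1 and 4 higher in SCC25, so the excess in SCC1 was smaller there than over the 12 libraries.

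The regulatory sequence of the junction genes is shown because ZEB and SNAIL factors bind the E-box CACCTG in promoters of such genes. The 250 bases before the RefSeq gene start (GRCh38.p14) were searched on both strands for CACCTG, which reads CAGGTG on the other strand. A window was matched by symbol for 17 of the 35 listed genes, and 7 of these (41.2%) held the motif, beside 17.5% of all 27305 windows of the same length. Among the 12 matched genes called higher in SCC1, 6 windows held it. CLDN7 (chr17:7262479-7262728 on the minus strand) held 4 matches, CRB3 (chr19:6464021-6464270 on the plus strand) held 5 and OCLN (chr5:69492297-69492546 on the plus strand) held 1, printed 5′ to 3′ with each match in capitals.
CLDN7: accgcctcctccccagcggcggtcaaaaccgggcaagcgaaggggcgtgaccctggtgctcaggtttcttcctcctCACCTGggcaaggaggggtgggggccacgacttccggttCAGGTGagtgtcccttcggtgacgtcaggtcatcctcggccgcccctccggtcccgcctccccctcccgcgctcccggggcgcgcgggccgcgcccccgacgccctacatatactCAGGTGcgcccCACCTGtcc
CRB3: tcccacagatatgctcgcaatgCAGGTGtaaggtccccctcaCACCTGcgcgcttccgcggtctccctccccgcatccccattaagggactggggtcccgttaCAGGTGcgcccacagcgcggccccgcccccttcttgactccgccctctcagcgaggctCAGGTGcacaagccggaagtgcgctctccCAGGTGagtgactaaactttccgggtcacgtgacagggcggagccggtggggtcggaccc
OCLN: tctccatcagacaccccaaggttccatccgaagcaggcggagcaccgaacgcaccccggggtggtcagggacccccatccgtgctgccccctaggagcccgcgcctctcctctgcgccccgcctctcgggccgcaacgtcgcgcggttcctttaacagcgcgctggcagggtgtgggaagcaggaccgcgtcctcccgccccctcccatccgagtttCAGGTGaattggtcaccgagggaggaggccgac
These 3 genes were all higher in SCC1. CGN, CLDN4 and TJP3, also higher in SCC1 beyond 2-fold, held 0 matches. No window was matched for CDH1 or EPCAM. The matched windows of the list held more CG pairs than all windows (median 19 and 10), and the motif shares were not adjusted for this. A match is only a description of the letters, and binding was not measured in these libraries.

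Desmosome genes were mostly higher in SCC25. Of 11 tested, 8 were called higher in SCC25 and 0 higher in SCC1 (background 37.7% and 37.3%). Beyond 2-fold were 4 and 0 (background 14.9% and 8.65%), with a median log2 fold change of -1.01. PKP1, a plakophilin of stratified epithelium, ranged over 18.6 to 37.4 CPM in SCC1 (median 26.1) and 260.2 to 438 CPM in SCC25 (median 323). PKP1 had a log2 fold change of -3.58 ± 0.18 (SE), with an adjusted p of 1.13e-10. DSG3, a desmoglein of basal keratinocytes, ranged over 38.6 to 66.1 CPM in SCC1 (median 48.9) and 178 to 328 CPM in SCC25 (median 213). DSG3 had a log2 fold change of -2.17 ± 0.18 (SE), with an adjusted p of 2.87e-08. DSC3, its desmocollin counterpart, ranged over 63.7 to 108 CPM in SCC1 (median 77.1) and 303 to 382 CPM in SCC25 (median 333) (log2 fold change -2.01 ± 0.13 (SE), adjusted p = 1.71e-09), and PERP, a membrane protein of desmosomes, over 253 to 395 CPM in SCC1 (median 282) and 656 to 797 CPM in SCC25 (median 724). PERP had a log2 fold change of -1.24 ± 0.11 (SE), with an adjusted p of 6.12e-08. The libraries of the 2 lines did not overlap for any of these 4 genes, as for 56.8% of all genes tested.

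**Figure D1:**
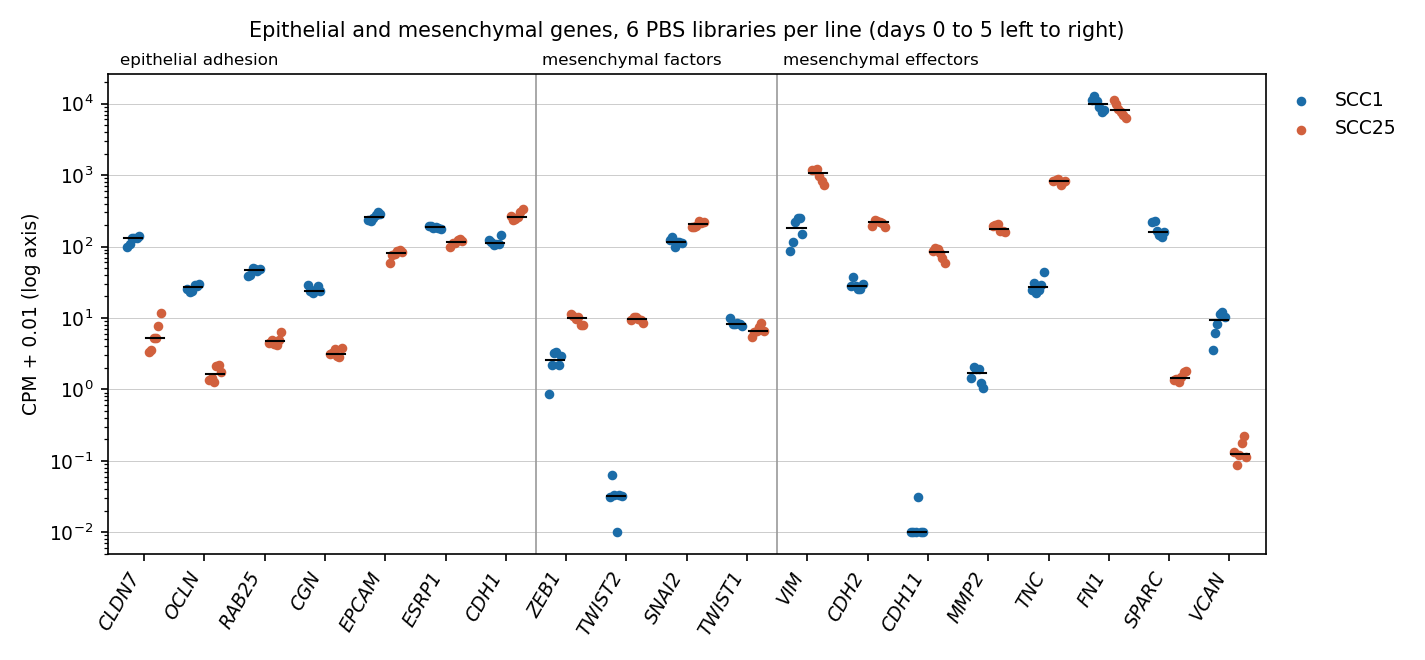
Levels of 19 epithelial and mesenchymal genes in CPM + 0.01 on a log axis. Each point is 1 PBS library, blue for SCC1 and orange for SCC25, with days 0 to 5 from left to right within a gene, and the bar is the median of 6. CLDN7, OCLN, RAB25 and CGN lie higher in SCC1, while VIM, CDH2, CDH11, MMP2 and TNC lie higher in SCC25, and SPARC and VCAN go the other way.

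Mesenchymal genes were mostly higher in SCC25, although that line also had more E-cadherin and desmosome RNA. All 10 mesenchymal transcription factors tested were called, 7 higher in SCC25 and 3 higher in SCC1 (background 37.7% and 37.3%). Beyond 2-fold were 6 and 0 (background 14.9% and 8.65%). ZEB1, a repressor of junction genes, ranged over 0.850 to 3.35 CPM in SCC1 (median 2.55) and 7.87 to 11.3 CPM in SCC25 (median 9.94). ZEB1 had a log2 fold change of -1.98 ± 0.24 (SE), with an adjusted p of 1.8e-06. TWIST2 was close to 0 in SCC1, at 0 to 0.0532 CPM in SCC1 (median 0.0225) and 8.50 to 10.4 CPM in SCC25 (median 9.63). FOXC2 and TCF4, factors linked to EMT, had medians of 0.938 CPM in SCC1 and 8.94 CPM in SCC25 for FOXC2, and of 4.52 CPM in SCC1 and 22.4 CPM in SCC25 for TCF4, and FOXC1 of 11.3 CPM in SCC1 and 26.0 CPM in SCC25. GSC, a homeobox gene, had no count in any SCC1 library and 0.270 to 0.535 CPM in SCC25 (median 0.436), at least 5.45-fold higher against a floor of 3 counts per library. SNAI2, the SLUG gene, ranged over 98.0 to 137 CPM in SCC1 (median 116) and 187 to 228 CPM in SCC25 (median 205). SNAI2 had a log2 fold change of -0.81 ± 0.08 (SE), with an adjusted p of 1.25e-07. The 3 factors called higher in SCC1 were ZEB2 at 0.43, SNAI1 at 1.26 and TWIST1 at 0.31 on the log2 scale. With flow cell as a covariate ZEB2 and SNAI1 were no longer called (adjusted p = 0.551 and 0.202), and without the day 0 libraries TWIST1 was not (adjusted p = 0.0808). PRRX1 was too low to be tested, at 0 to 0.233 CPM in SCC1 (median 0.0642) and 0.0416 to 0.154 CPM in SCC25 (median 0.0978).

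Of 44 mesenchymal effector genes tested, 33 were called higher in SCC25 and 8 higher in SCC1 (background 37.7% and 37.3%). Beyond 2-fold were 20 and 4 (background 14.9% and 8.65%), with a median log2 fold change of -1.16. VIM, the intermediate filament vimentin, ranged over 85.7 to 253 CPM in SCC1 (median 183) and 726 to 1216 CPM in SCC25 (median 1068) (log2 fold change -2.51 ± 0.25 (SE), adjusted p = 2.27e-07), so the lines did not overlap. CDH2, the N-cadherin gene, ranged over 25.1 to 37.2 CPM in SCC1 (median 27.8) and 189.6 to 233 CPM in SCC25 (median 217). CDH2 had a log2 fold change of -2.89 ± 0.09 (SE), with an adjusted p of 6.46e-13. CDH11, a cadherin of mesenchymal cells, was found in 1 of the 6 SCC1 libraries, at 0 to 0.0214 CPM in SCC1 (median 0), against 58.8 to 94.4 CPM in SCC25 (median 84.7). COL3A1, a fibrillar collagen, was likewise close to 0 in SCC1, at 0 to 0.0233 CPM in SCC1 (median 0) and 10.5 to 21 CPM in SCC25 (median 14.1). MMP2, a gelatinase, ranged over 1.05 to 2.05 CPM in SCC1 (median 1.68) and 158 to 204 CPM in SCC25 (median 178) (log2 fold change -6.82 ± 0.15 (SE), adjusted p = 1.25e-14), and TNC, the matrix protein tenascin C, over 22.6 to 44.3 CPM in SCC1 (median 26.7) and 731 to 869 CPM in SCC25 (median 819). TNC had a log2 fold change of -4.80 ± 0.15 (SE), with an adjusted p of 4.68e-13. The collagen gene COL5A2 and the proteoglycan gene BGN had medians of 6.91 CPM in SCC1 and 142 CPM in SCC25 for COL5A2, and of 0.560 CPM in SCC1 and 8.56 CPM in SCC25 for BGN.

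A small group of matrix genes was higher in SCC1. SPARC, a secreted matrix protein, ranged over 137 to 226 CPM in SCC1 (median 161) and 1.26 to 1.81 CPM in SCC25 (median 1.42). SPARC had a log2 fold change of 6.86 ± 0.17 (SE), with an adjusted p of 2.69e-14. VCAN, the proteoglycan versican, ranged over 3.57 to 12 CPM in SCC1 (median 9.23) and 0.0786 to 0.212 CPM in SCC25 (median 0.116). VCAN had a log2 fold change of 6.01 ± 0.35 (SE), with an adjusted p of 4.53e-10. FSTL1, a secreted glycoprotein, had medians of 396 CPM in SCC1 and 164 CPM in SCC25. ACTA2, smooth muscle actin, was called over the 12 libraries (log2 fold change 1.68 ± 0.14 (SE), adjusted p = 3.21e-08). It also passed the 2-fold test (adjusted p of that test 0.000116). Within the shared flow cell, however, its log2 fold change was 0.17 (adjusted p = 0.589). FN1, the fibronectin gene, was abundant in both lines, at 7657 to 12771 CPM in SCC1 (median 9933) and 6368 to 11070.0 CPM in SCC25 (median 8021), and was not called. FN1 had a log2 fold change of 0.25 ± 0.15 (SE), with an adjusted p of 0.147. It was called higher in SCC1 without the SCC25 library of day 0 (log2 0.34, adjusted p = 0.0446), with flow cell as a covariate (0.71, adjusted p = 0.0123) and within the shared flow cell (1.11, adjusted p = 6.6e-05). With day as a replicate block it was called too (0.25, adjusted p = 0.00314), and on each day it was higher in SCC1 than in SCC25.

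Fibroblast markers were mostly higher in SCC25. COL1A1, COL1A2, COL3A1 and COL6A3 are also on the list of mesenchymal effectors, so the 2 lists are not separate. Of the 10 on the list, 9 were higher in SCC25 beyond 2-fold (background 14.9%). The summed level of the list was 54.1 to 77.2 CPM in SCC1 and 187 to 239 CPM in SCC25. LUM and DCN, matrix proteoglycans, had medians of 0.156 CPM in SCC1 and 25.3 CPM in SCC25 for LUM, and of 0.146 CPM in SCC1 and 5.30 CPM in SCC25 for DCN. THY1 and PDGFRA were low in SCC25 also, with medians of 2.77 and 1.43 CPM, and COL1A2 had medians of 9.09 CPM in SCC1 and 62.2 CPM in SCC25. No marker of the 10 was at 0 throughout SCC25, and COL3A1 was at 0 in 5 of the 6 SCC1 libraries. Of 10 endothelial and leukocyte markers 4 passed the filter, with 1 called higher in SCC1 (CD14) and 3 in SCC25 (background 37.3% and 37.7%). The CD14 call was lost with flow cell as a covariate (adjusted p = 0.186) and within the shared flow cell (adjusted p = 0.278). CD68, a lysosomal protein that carcinoma cells also make, held most of the sum (20.0 to 55.7 CPM in SCC1, 173 to 244 CPM in SCC25). Of 10 melanocyte and neural markers 6 passed, 4 called higher in SCC1 and 1 in SCC25 (background 37.3% and 37.7%). TUBB3, a tubulin gene, held most of the sum (115 to 166 CPM in SCC1 and 32.5 to 43.5 CPM in SCC25). CD3E was at 0 in all SCC25 libraries and LYZ at no more than 0.0243 CPM in either line. The part of other cells in the mesenchymal difference was not tested.

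Receptor tyrosine kinases differed in both directions. Of 58 on the list 47 were tested, of which 17 were called higher in SCC1 and 26 higher in SCC25 (background 37.3% and 37.7%). The called count toward SCC1 was thus near background. Beyond 2-fold were 6 and 18 (background 8.65% and 14.9%), with a median of -0.66. EGFR, the target of cetuximab, ranged over 601 to 651 CPM in SCC1 (median 615) and 946 to 1088 CPM in SCC25 (median 1052) and was higher in each SCC25 library. EGFR had a log2 fold change of -0.74 ± 0.05 (SE), with an adjusted p of 1.18e-09. ERBB2, its preferred dimer partner, ranged over 107 to 111 CPM in SCC1 (median 109.8) and 46.8 to 52.7 CPM in SCC25 (median 48.5) and was higher in each SCC1 library. ERBB2 had a log2 fold change of 1.16 ± 0.04 (SE), with an adjusted p of 3.22e-12. ERBB3, the kinase-poor receptor of neuregulins, ranged over 30.5 to 45.2 CPM in SCC1 (median 32.8) and 15.7 to 18.6 CPM in SCC25 (median 17.5) (log2 fold change 1.03 ± 0.09 (SE), adjusted p = 8.67e-08), and MET, the receptor of hepatocyte growth factor, over 494 to 609 CPM in SCC1 (median 535) and 243 to 274 CPM in SCC25 (median 254). MET had a log2 fold change of 1.09 ± 0.06 (SE), with an adjusted p of 1.16e-10. AXL, a receptor linked to EMT and to cetuximab resistance, overlapped between the lines, at 196 to 281 CPM in SCC1 (median 249) and 157 to 228 CPM in SCC25 (median 204). AXL had a log2 fold change of 0.29 ± 0.10 (SE), with an adjusted p of 0.0148. EPHA2 was called higher in SCC1 (log2 fold change 0.55 ± 0.23 (SE), adjusted p = 0.0411), but the call was lost when any of 9 of the 12 libraries was left out, and with flow cell as a covariate (adjusted p = 0.346). IGF1R ranged over 74.6 to 109 CPM in SCC1 (median 92.0) and 156 to 183 CPM in SCC25 (median 169). IGF1R had a log2 fold change of -0.88 ± 0.09 (SE), with an adjusted p of 5.46e-07.

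FGF receptors were higher in SCC25. FGFR1 ranged over 0.771 to 1.22 CPM in SCC1 (median 0.890) and 33.3 to 40.6 CPM in SCC25 (median 38.5) (log2 fold change -5.28 ± 0.12 (SE), adjusted p = 1.56e-14), FGFR2 over 4.87 to 11.9 CPM in SCC1 (median 6.54) and 37.0 to 41.1 CPM in SCC25 (median 39.0) (log2 fold change -2.34 ± 0.20 (SE), adjusted p = 4.33e-08) and FGFR3 over 2.54 to 3.76 CPM in SCC1 (median 2.70) and 12.8 to 24.6 CPM in SCC25 (median 17.0). FGFR3 had a log2 fold change of -2.62 ± 0.16 (SE), with an adjusted p of 7.51e-10. Ephrin receptors and neurotrophic receptors that were near 0 in SCC1 were detected in SCC25. Medians were 0.348 CPM in SCC1 and 28 CPM in SCC25 for EPHA3, 0.0787 CPM in SCC1 and 12.2 CPM in SCC25 for EPHA4, 0.0329 CPM in SCC1 and 2.73 CPM in SCC25 for EPHB6, 0.204 CPM in SCC1 and 5.63 CPM in SCC25 for RET and 0 CPM in SCC1 and 1.31 CPM in SCC25 for NTRK2. KDR, the main VEGF receptor of endothelium, went the other way, at 5.22 to 14.2 CPM in SCC1 (median 9.98) and 0.177 to 0.353 CPM in SCC25 (median 0.203). KDR had a log2 fold change of 5.36 ± 0.31 (SE), with an adjusted p of 4.52e-10. TIE1, another endothelial receptor, ranged over 0.665 to 7.01 CPM in SCC1 (median 3.20) and 0.0590 to 0.219 CPM in SCC25 (median 0.0857). TIE1 had a log2 fold change of 4.86 ± 0.65 (SE), with an adjusted p of 6.67e-06. The collagen receptor DDR2 and the kinase LMTK2 were also higher in SCC1 beyond 2-fold, at 1.99 and 1.34 on the log2 scale.

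Of 11 ligands of the ERBB receptors, 5 were called higher in SCC1 and 4 higher in SCC25. Beyond 2-fold were 3 and 3 (background 8.65% and 14.9%). The called counts were near the shares over all genes (37.3% and 37.7%), so the members are given singly. AREG, amphiregulin, a ligand of EGFR, ranged over 157 to 344 CPM in SCC1 (median 277) and 56.6 to 92.8 CPM in SCC25 (median 80.9) (log2 fold change 1.79 ± 0.17 (SE), adjusted p = 1.63e-07), and TGFA, transforming growth factor alpha, over 160.1 to 277 CPM in SCC1 (median 257) and 85.5 to 96.2 CPM in SCC25 (median 87.3). TGFA had a log2 fold change of 1.44 ± 0.11 (SE), with an adjusted p of 1.41e-08. BTC, betacellulin, ranged over 4.38 to 8.18 CPM in SCC1 (median 4.90) and 0.367 to 1.06 CPM in SCC25 (median 0.722). BTC had a log2 fold change of 2.89 ± 0.23 (SE), with an adjusted p of 1.4e-08. EREG, epiregulin, was higher in SCC1 by a smaller amount (log2 fold change 0.65 ± 0.16 (SE), adjusted p = 0.00179), a call that was lost with flow cell as a covariate (adjusted p = 0.296). HBEGF overlapped between the lines, at 22 to 111 CPM in SCC1 (median 75.5) and 42.7 to 83.6 CPM in SCC25 (median 73.2), and was not called (adjusted p = 0.843). The neuregulin gene NRG1, whose product binds ERBB3 and ERBB4, ranged over 19.3 to 41.0 CPM in SCC1 (median 25) and 130.1 to 164 CPM in SCC25 (median 148) and was higher in SCC25. NRG1 had a log2 fold change of -2.45 ± 0.15 (SE), with an adjusted p of 7.91e-10. EGF itself was low but also higher in SCC25, at 0.140 to 0.284 CPM in SCC1 (median 0.189) and 3.65 to 5.69 CPM in SCC25 (median 4.95) (log2 fold change -4.58 ± 0.18 (SE), adjusted p = 3.75e-12), as was NRG3, at 0 to 0.0231 CPM in SCC1 (median 0) and 0.306 to 0.681 CPM in SCC25 (median 0.550).

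Ligands of the other receptor tyrosine kinases were more often higher in SCC25. Of 36 tested, 24 were called in that direction and 8 in the direction of SCC1 (background 37.7% and 37.3%). Beyond 2-fold were 12 and 5 (background 14.9% and 8.65%). FGF2 and FGF5, fibroblast growth factors, were higher in SCC1, at 98.2 to 150.4 CPM in SCC1 (median 114) and 9.22 to 19.1 CPM in SCC25 (median 16.4) for FGF2 (log2 fold change 2.94 ± 0.18 (SE), adjusted p = 6.58e-10), and at 53.0 to 84.2 CPM in SCC1 (median 71.7) and 3.62 to 4.36 CPM in SCC25 (median 3.87) for FGF5. FGF5 had a log2 fold change of 4.15 ± 0.13 (SE), with an adjusted p of 6.35e-13. PDGFD, a platelet-derived growth factor, had no count in any SCC25 library and 11.7 to 15.3 CPM in SCC1 (median 13.1), at least 179.5-fold higher. PROS1, a ligand of the TAM receptors, had medians of 32.2 CPM in SCC1 and 4.41 CPM in SCC25, and GAS6, the other TAM ligand, of 26.6 CPM in SCC1 and 88.3 CPM in SCC25. WNT5A was near 0 in SCC1, at 0 to 0.0532 CPM in SCC1 (median 0) and 4.54 to 6.12 CPM in SCC25 (median 5.44), and WNT5B ranged over 0.382 to 1.05 CPM in SCC1 (median 0.825) and 6.99 to 13.2 CPM in SCC25 (median 9.04). KITLG, the ligand of KIT, had medians of 17.5 CPM in SCC1 and 60.1 CPM in SCC25, and ANGPT1, a ligand of TEK, of 0.0640 CPM in SCC1 and 2.90 CPM in SCC25. VEGFA overlapped between the lines, at 207 to 344 CPM in SCC1 (median 310.1) and 221 to 380.5 CPM in SCC25 (median 308), and was not called (log2 -0.04, adjusted p = 0.788); within the shared flow cell it was called higher in SCC1 (0.43, adjusted p = 0.0322).

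**Figure D2:**
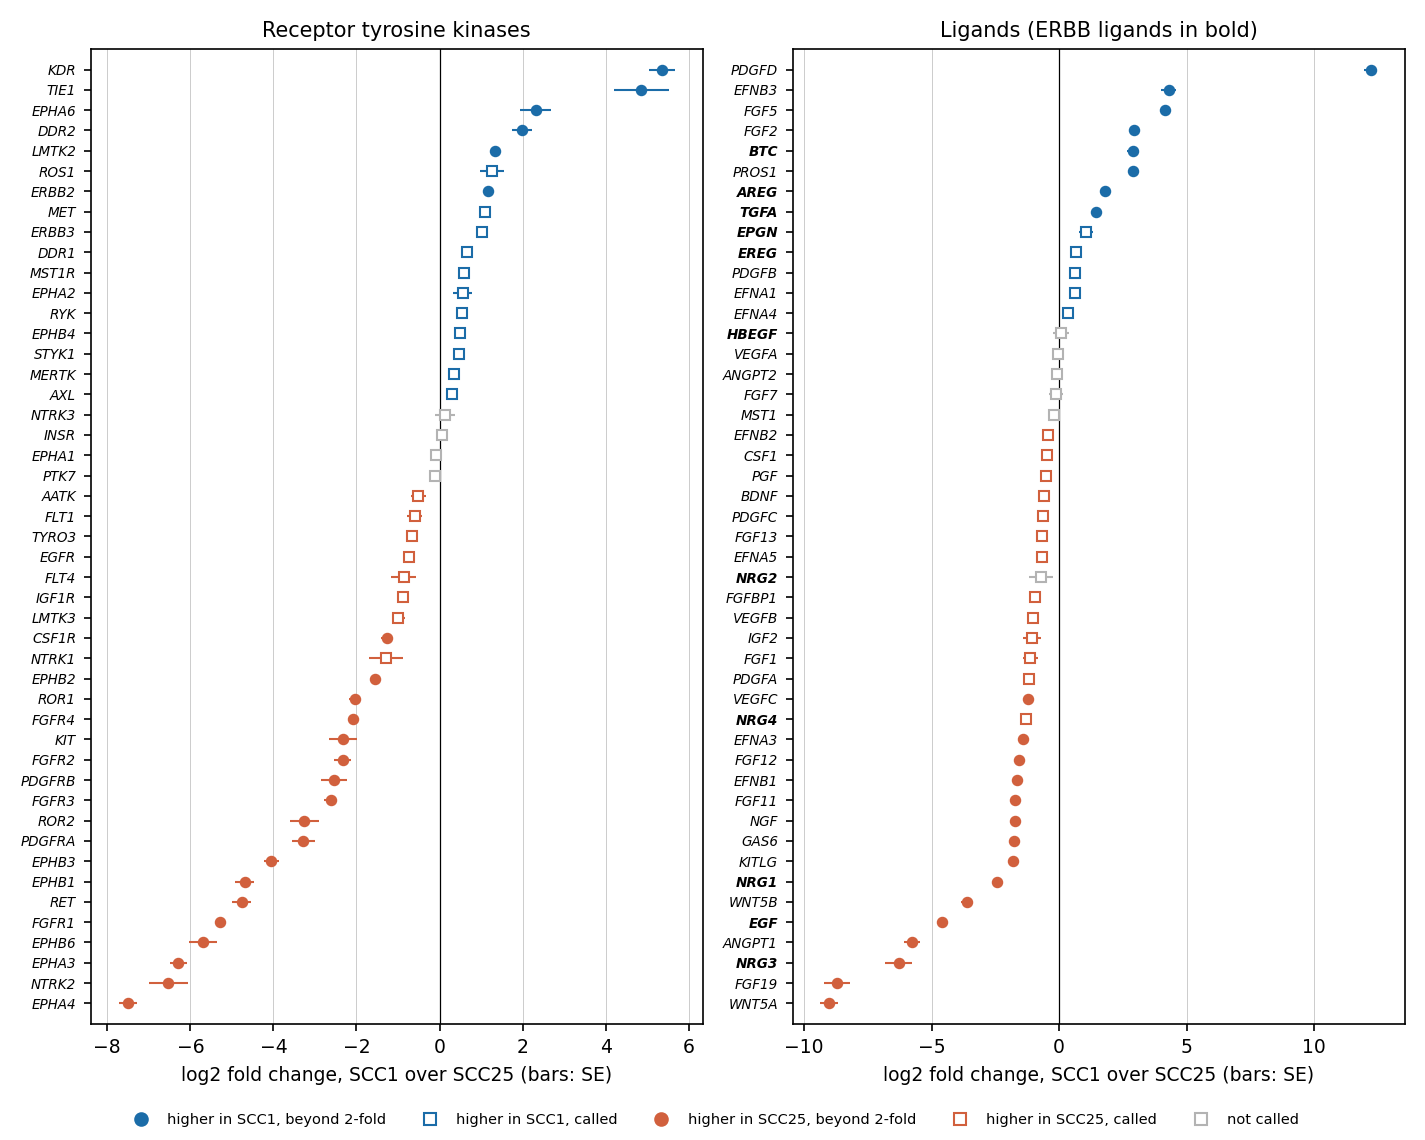
Log2 fold changes of SCC1 over SCC25 for the 47 receptor tyrosine kinases and the 47 ligands tested, with bars of 1 SE. Filled circles passed the 2-fold test, open squares in colour were called, and grey squares were not. KDR and PDGFD lie at the SCC1 end, EPHA4 and WNT5A at the SCC25 end, and the fold changes of PDGFD and FGF19 depend on the prior count since 1 line was at 0.

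Receptors of the TGF-beta family showed 4 members called higher in SCC1 and 7 higher in SCC25 of 13 tested (background 37.3% and 37.7%). Beyond 2-fold were 2 and 4 (background 8.65% and 14.9%). TGFBR1, the kinase that signals for TGF-beta, ranged over 21 to 28.7 CPM in SCC1 (median 22.4) and 101 to 129 CPM in SCC25 (median 111). TGFBR1 had a log2 fold change of -2.25 ± 0.08 (SE), with an adjusted p of 2.61e-12. TGFBR2, its partner, was higher in SCC1 by a small amount, at 121 to 192 CPM in SCC1 (median 179) and 104 to 142 CPM in SCC25 (median 123) (log2 fold change 0.45 ± 0.11 (SE), adjusted p = 0.0015), a call that was lost with flow cell as a covariate (adjusted p = 0.106). TGFBR3, the coreceptor betaglycan, ranged over 4.48 to 6.12 CPM in SCC1 (median 4.94) and 9.14 to 12.1 CPM in SCC25 (median 10.5). TGFBR3 had a log2 fold change of -1.04 ± 0.10 (SE), with an adjusted p of 1.2e-07. ENG, endoglin, another coreceptor, ranged over 20.8 to 50.3 CPM in SCC1 (median 37.8) and 0.413 to 0.852 CPM in SCC25 (median 0.681). ENG had a log2 fold change of 5.78 ± 0.26 (SE), with an adjusted p of 2.12e-11. BAMBI, a decoy receptor, was near 0 in SCC1, at 0 to 0.117 CPM in SCC1 (median 0.0543) and 6.45 to 11.6 CPM in SCC25 (median 8.73). ACVR2B, an activin receptor, was higher in SCC1 at 1.32, and ACVR1C and BMPR1B were higher in SCC25 at -2.21 and -1.59 on the log2 scale.

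Cytokine receptors numbered 20 called higher in SCC1 and 18 higher in SCC25 of 43 tested, 7 and 15 beyond 2-fold, where the shares over all genes were 37.3% and 37.7% called and 8.65% and 14.9% beyond 2-fold. The called counts were near those shares. Of 5 interferon receptor genes on the list, IFNAR1, IFNAR2 and IFNGR2 were higher in SCC1 beyond 2-fold. IFNGR1 was not called (log2 0.00, adjusted p = 0.992), and IFNLR1 was called at -0.53 on the log2 scale, not beyond 2-fold. IFNAR1 ranged over 277 to 305 CPM in SCC1 (median 292) and 68.3 to 85.5 CPM in SCC25 (median 78.1) (log2 fold change 1.90 ± 0.06 (SE), adjusted p = 3.23e-13), IFNGR2 over 206 to 294 CPM in SCC1 (median 271) and 60.6 to 75.7 CPM in SCC25 (median 72.3) (log2 fold change 1.90 ± 0.09 (SE), adjusted p = 2.74e-11) and IFNAR2 over 59.7 to 69.3 CPM in SCC1 (median 65.1) and 23.2 to 29.0 CPM in SCC25 (median 25.8). IFNAR2 had a log2 fold change of 1.31 ± 0.06 (SE), with an adjusted p of 4.29e-11. IFNAR1, IFNAR2 and IFNGR2 are neighbours on chromosome 21 and are therefore not separate observations of the region. IL1R1, the signalling receptor of interleukin 1, had medians of 30.7 CPM in SCC1 and 8.07 CPM in SCC25. ACKR3, an atypical receptor of the chemokine CXCL12, was near 0 in SCC1, at 0 to 0.106 CPM in SCC1 (median 0.0727) and 72.5 to 115 CPM in SCC25 (median 76.8). TNFRSF1B and TNFRSF19, of the tumour necrosis factor receptor family, had medians of 0.146 CPM in SCC1 and 12 CPM in SCC25 for TNFRSF1B, and of 0.174 CPM in SCC1 and 15.4 CPM in SCC25 for TNFRSF19, and IL20RB, a receptor subunit of interleukins 20 and 24, of 3.76 CPM in SCC1 and 94.2 CPM in SCC25. NGFR, a receptor of neurotrophins that marks basal cells, had medians of 0.572 CPM in SCC1 and 13.8 CPM in SCC25.

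Integrin subunits were mostly higher in SCC25, with 13 of 18 tested called in that direction and 4 in the direction of SCC1 (background 37.7% and 37.3%). Beyond 2-fold were 9 and 1 (background 14.9% and 8.65%), with a median of -1.17. ITGA2, a collagen-binding subunit, was the member beyond 2-fold toward SCC1 (adjusted p of the 2-fold test 0.0115). It ranged over 517 to 1146 CPM in SCC1 (median 921) and 209 to 436 CPM in SCC25 (median 295) (log2 fold change 1.49 ± 0.19 (SE), adjusted p = 4.5e-06). With flow cell as a covariate no integrin passed the 2-fold test toward SCC1. ITGA4 ranged over 2.94 to 5.62 CPM in SCC1 (median 3.80) and 77.5 to 101 CPM in SCC25 (median 88.7) (log2 fold change -4.50 ± 0.14 (SE), adjusted p = 2.82e-13), and ITGB3, a subunit of vitronectin receptors, over 0.595 to 2.95 CPM in SCC1 (median 1.56) and 8.12 to 13.3 CPM in SCC25 (median 11.3). ITGB3 had a log2 fold change of -2.75 ± 0.27 (SE), with an adjusted p of 2.09e-07. ITGA11, a collagen receptor of mesenchymal cells, and ITGA7, a laminin receptor of muscle, were low in both lines, with medians of 0.849 CPM in SCC1 and 4.74 CPM in SCC25 for ITGA11, and of 0.192 CPM in SCC1 and 1.79 CPM in SCC25 for ITGA7.

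Genes of basal squamous identity were mostly higher in SCC25. Of 24 members tested, 18 were called higher in SCC25 and 3 higher in SCC1 (background 37.7% and 37.3%). Beyond 2-fold were 12 and 1 (background 14.9% and 8.65%), with a median of -1.34. TP63, the master regulator of squamous epithelium, ranged over 99.4 to 148 CPM in SCC1 (median 112) and 518 to 747 CPM in SCC25 (median 632). TP63 had a log2 fold change of -2.41 ± 0.12 (SE), with an adjusted p of 7.44e-11. SOX2, which is gained in many squamous tumours, ranged over 0.0643 to 0.131 CPM in SCC1 (median 0.0997) and 4.4 to 6.07 CPM in SCC25 (median 5.52). SOX2 had a log2 fold change of -5.71 ± 0.17 (SE), with an adjusted p of 2.01e-13. KRT5 ranged over 290.5 to 1093 CPM in SCC1 (median 563) and 4604 to 6656 CPM in SCC25 (median 5259.8) (log2 fold change -3.17 ± 0.29 (SE), adjusted p = 7.96e-08), and its partner KRT14 over 153 to 382 CPM in SCC1 (median 247) and 2882 to 4409 CPM in SCC25 (median 3321). KRT14 had a log2 fold change of -3.79 ± 0.20 (SE), with an adjusted p of 1.49e-10. KRT15, a keratin of basal and stem cells, ranged over 4.85 to 6.71 CPM in SCC1 (median 5.63) and 12 to 70.9 CPM in SCC25 (median 28) (log2 fold change -2.58 ± 0.35 (SE), adjusted p = 6.33e-06), and KRT17 over 381 to 810.0 CPM in SCC1 (median 441) and 706 to 1594 CPM in SCC25 (median 903) with overlap. KRT17 had a log2 fold change of -0.95 ± 0.22 (SE), with an adjusted p of 0.00101. PDPN, podoplanin, had medians of 26.2 CPM in SCC1 and 162 CPM in SCC25.

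Keratins of simple epithelium showed the reverse. All 5 tested were called higher in SCC1 (background 37.3%). Over the 12 libraries 2 of them were beyond 2-fold (background 8.65%), and 1 with flow cell as a covariate or within the shared flow cell. KRT7 ranged over 1417 to 1932 CPM in SCC1 (median 1778) and 589 to 697 CPM in SCC25 (median 623). KRT7 had a log2 fold change of 1.46 ± 0.07 (SE), with an adjusted p of 1.08e-10. KRT8 ranged over 895 to 1513 CPM in SCC1 (median 1214) and 417 to 669 CPM in SCC25 (median 631) (log2 fold change 0.99 ± 0.14 (SE), adjusted p = 1.15e-05) and its partner KRT18 over 611 to 1137 CPM in SCC1 (median 974) and 426 to 551 CPM in SCC25 (median 494). KRT18 had a log2 fold change of 0.90 ± 0.14 (SE), with an adjusted p of 3.05e-05. KRT19 overlapped, at 120.2 to 161 CPM in SCC1 (median 134) and 54.4 to 159.8 CPM in SCC25 (median 82.8) (log2 fold change 0.53 ± 0.20 (SE), adjusted p = 0.0268), and its call was lost without any of 5 single libraries, without the day 0 libraries (adjusted p = 0.0955) and with flow cell as a covariate (adjusted p = 0.0573).

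Stress-induced and suprabasal keratins were higher in SCC25 for 9 of 10 tested, all 9 beyond 2-fold (background 14.9%), with a median of -4.05. KRT6A, a keratin of wound edges and hyperproliferative epithelium, ranged over 95.1 to 201 CPM in SCC1 (median 149) and 2784 to 4536 CPM in SCC25 (median 3277) (log2 fold change -4.51 ± 0.22 (SE), adjusted p = 5.79e-11), and KRT16, its partner, over 6.15 to 13.9 CPM in SCC1 (median 7.97) and 67.4 to 194 CPM in SCC25 (median 96.4). KRT16 had a log2 fold change of -3.63 ± 0.28 (SE), with an adjusted p of 1.04e-08. KRT6B and KRT6C followed, with medians of 1.08 CPM in SCC1 and 67.5 CPM in SCC25 for KRT6B, and of 0.116 CPM in SCC1 and 2.28 CPM in SCC25 for KRT6C. The KRT6 genes are near-identical copies and the split of reads among them is uncertain. KRT4, KRT6A, KRT6B, KRT6C and KRT75 are also neighbours on chromosome 12, so they are not separate observations of that region. KRT75, of the hair companion layer, had medians of 0.0232 CPM in SCC1 and 12.1 CPM in SCC25. KRT13, a keratin of mucosal suprabasal cells, overlapped on the early days, at 1.34 to 7.37 CPM in SCC1 (median 3.97) and 5.00 to 102 CPM in SCC25 (median 24). KRT13 had a log2 fold change of -3.21 ± 0.70 (SE), with an adjusted p of 0.000691. KRT10, of cornifying epidermis, was not called (log2 -0.16, adjusted p = 0.231), and KRT1 was too low to be tested, at no more than 1.23 CPM.

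Genes of squamous differentiation and cornification were called higher in SCC25 for 28 of 43 tested and higher in SCC1 for 8 (background 37.7% and 37.3%). Beyond 2-fold were 22 and 5 (background 14.9% and 8.65%), with a median of -1.78. A further 27 of the 70 listed were too low to be tested. The kallikrein (KLK) genes of the list are neighbours on chromosome 19 and are therefore not separate observations of that region. CALML3, a calmodulin-like protein of epithelium, was near 0 in SCC1, at 0 to 0.0231 CPM in SCC1 (median 0.0106) and 28.9 to 47.3 CPM in SCC25 (median 37.6). CD24, a surface glycoprotein, ranged over 1.13 to 2.89 CPM in SCC1 (median 2.14) and 473 to 551 CPM in SCC25 (median 488). CD24 had a log2 fold change of -7.95 ± 0.18 (SE), with an adjusted p of 1.8e-14. The kallikrein proteases that cleave corneodesmosomes were also higher in SCC25, with KLK5 at 0.257 to 0.798 CPM in SCC1 (median 0.356) and 41.6 to 80.5 CPM in SCC25 (median 49.5) (log2 fold change -7.07 ± 0.25 (SE), adjusted p = 1.4e-12) and medians of 0.110 CPM in SCC1 and 9.78 CPM in SCC25 for KLK7, and of 0.0240 CPM in SCC1 and 11 CPM in SCC25 for KLK8. SERPINB2, the protease inhibitor PAI-2, went the other way, at 929.6 to 2189 CPM in SCC1 (median 1902) and 11.2 to 15.7 CPM in SCC25 (median 13.2). SERPINB2 had a log2 fold change of 7.00 ± 0.22 (SE), with an adjusted p of 3.8e-13. PI3, the elastase inhibitor elafin, ABCA12, a lipid transporter, and SERPINB1 were higher in SCC1 too, at 5.47, 3.65 and 3.06 on the log2 scale. IVL, the envelope protein involucrin, was low in both lines, at 0.129 to 0.426 CPM in SCC1 (median 0.323) and 0.286 to 1.12 CPM in SCC25 (median 0.344), and was not called (log2 fold change -0.72 ± 0.37 (SE), adjusted p = 0.0913), although within the shared flow cell it was called higher in SCC25 (log2 -2.40, adjusted p = 0.000195).

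**Figure D3:**
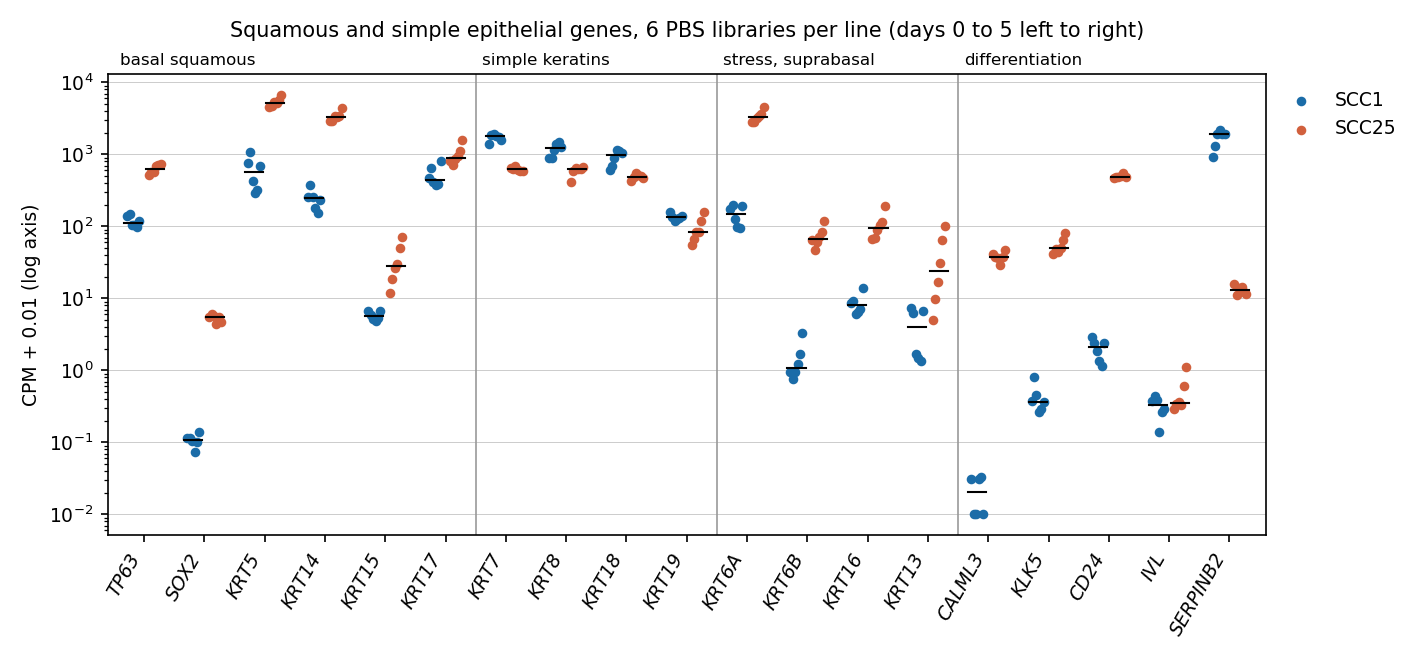
Levels of 19 squamous and simple epithelial genes in CPM + 0.01 on a log axis, with 1 point per PBS library, days 0 to 5 from left to right within a gene, and the median of 6 as a bar. TP63, SOX2, KRT5, KRT14, KRT6A, CALML3 and CD24 lie higher in SCC25, KRT7, KRT8 and SERPINB2 higher in SCC1, and KRT13 and KRT15 spread widely within SCC25.

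Transcription factors of squamous epithelium were called higher in SCC25 for 20 and higher in SCC1 for 11 of 33 tested (background 37.7% and 37.3%). Beyond 2-fold were 12 and 3 (background 14.9% and 8.65%). TFAP2A, the activator protein 2 alpha factor, ranged over 95.4 to 106 CPM in SCC1 (median 100.3) and 58.0 to 64.5 CPM in SCC25 (median 61.3) without overlap (log2 fold change 0.72 ± 0.05 (SE), adjusted p = 1.79e-09). Of these 2 lines, the one with less VIM thus had more TFAP2A. SCC6 with PBS did not follow this, with medians of 50.3 CPM for TFAP2A and 98.7 CPM for VIM, both below those of SCC1 and SCC25. MYC, not on this list, ranged over 99.9 to 176 CPM in SCC1 (median 154) and 367 to 624 CPM in SCC25 (median 544). MYC had a log2 fold change of -1.82 ± 0.16 (SE), with an adjusted p of 4.06e-08. MAF, a regulator of keratinocyte differentiation, was near 0 in SCC1, at 0 to 0.0643 CPM in SCC1 (median 0) and 18.9 to 26.7 CPM in SCC25 (median 25). PAX9, a factor of oral and oesophageal epithelium, ranged over 1.90 to 2.98 CPM in SCC1 (median 2.21) and 47.7 to 90.3 CPM in SCC25 (median 74.3) (log2 fold change -4.96 ± 0.17 (SE), adjusted p = 8.17e-13), and FOXE1 over 2.32 to 3.62 CPM in SCC1 (median 3.10) and 22.4 to 37.6 CPM in SCC25 (median 26.1). FOXE1 had a log2 fold change of -3.17 ± 0.15 (SE), with an adjusted p of 4.18e-11. BARX2 went the other way, at 6.93 to 9.72 CPM in SCC1 (median 8.26) and 0.157 to 0.424 CPM in SCC25 (median 0.254) (log2 fold change 5.00 ± 0.19 (SE), adjusted p = 2.99e-12), as did GRHL3, a factor of barrier formation, at 1.64 to 5.27 CPM in SCC1 (median 2.29) and 0.0662 to 0.665 CPM in SCC25 (median 0.192). GRHL3 had a log2 fold change of 3.38 ± 0.42 (SE), with an adjusted p of 3.02e-06. ZNF750, a factor of terminal differentiation, was low in both, at 1.59 to 4.09 CPM in SCC1 (median 2.27) and 0.0612 to 1.33 CPM in SCC25 (median 0.341) (log2 fold change 2.35 ± 0.49 (SE), adjusted p = 0.000506), and its call was lost with flow cell as a covariate (adjusted p = 0.138). GRHL2, OVOL1 and OVOL2, which hold cells in an epithelial state, did not share a direction: GRHL2 was -0.55 and OVOL1 -1.49, both higher in SCC25, and OVOL2 was 1.26, higher in SCC1.

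HOX genes, which keep positional identity, were called higher in SCC25 for 19 and higher in SCC1 for 10 of 34 tested (background 37.7% and 37.3%). Beyond 2-fold were 12 and 0 (background 14.9% and 8.65%). HOXC10 ranged over 3.39 to 4.47 CPM in SCC1 (median 4.00) and 30.1 to 32.3 CPM in SCC25 (median 31.7) (log2 fold change -3.00 ± 0.08 (SE), adjusted p = 5e-14), HOXA9 over 2.10 to 2.95 CPM in SCC1 (median 2.43) and 12 to 14.7 CPM in SCC25 (median 13) (log2 fold change -2.43 ± 0.10 (SE), adjusted p = 8.91e-12) and HOXC4 over 1.07 to 1.65 CPM in SCC1 (median 1.27) and 6.77 to 9.32 CPM in SCC25 (median 8.12). HOXC4 had a log2 fold change of -2.62 ± 0.12 (SE), with an adjusted p of 2.81e-11. HOXB2 was near 0 in SCC1, at 0 to 0.0231 CPM in SCC1 (median 0) and 0.852 to 1.31 CPM in SCC25 (median 0.985). With flow cell as a covariate 2 members were higher in SCC1 beyond 2-fold.

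Proliferation genes gave a contrast to the identity genes. Of 23 tested, 8 were called higher in SCC1 and 6 higher in SCC25 (background 37.3% and 37.7%), and 9 were not called. None passed the 2-fold test in either direction (background 8.65% and 14.9%), and the median was 0.08. The summed level was 3546 to 4539 CPM in SCC1 and 3063 to 3647 CPM in SCC25. Without the SCC1 library of day 2, 1 member passed the 2-fold test toward SCC1, and within the shared flow cell 2 did.

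Genes that lie next to each other accounted for several of the most extreme differences. Among 10 genes with the largest fold changes toward SCC1 at a mean log2 CPM of 3 or more were FAT1 and TRIML2 on 4q35 and ZBTB21, RIPK4 and C2CD2 on 21q22. FAT1, a giant cadherin that is mutated or lost in part of HNSCC, ranged over 653 to 829 CPM in SCC1 (median 728) and 0.0408 to 0.0983 CPM in SCC25 (median 0.0783). FAT1 had a log2 fold change of 13.27 ± 0.13 (SE), with an adjusted p of 1.8e-18. In SCC6 with PBS it ranged over 295 to 618 CPM, so SCC25 was the line that stood apart. Of 8 neighbouring protein-coding genes tested from SORBS2 to FRG1 on 4q35 (chr4:186506598-190884357, GRCh37), 8 were called higher in SCC1 and 7 passed the 2-fold test. TLR3, a sensor of double-stranded RNA within that stretch, ranged over 7.74 to 13.7 CPM in SCC1 (median 9.93) and 0.0408 to 0.146 CPM in SCC25 (median 0.0648). TLR3 had a log2 fold change of 7.10 ± 0.25 (SE), with an adjusted p of 1.28e-12.

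On 21q22, from DSCAM to ZBTB21 (chr21:41382926-43430496, GRCh37), 8 of 8 genes tested were higher in SCC1 beyond 2-fold. RIPK4, a kinase of keratinocyte differentiation, had no count in any SCC25 library and 14.9 to 21.4 CPM in SCC1 (median 18.6), at least 247-fold higher. ZBTB21, a zinc finger factor, was at 0 in SCC25 as well and had 20.9 to 28.2 CPM in SCC1 (median 21.6), at least 313-fold higher. With flow cell as a covariate ZBTB21 and DSCAM were not called, at log2 fold changes of 10.9997 and 7.9573. That fit cannot decide whether their difference depends on the flow cell. Its flow cell terms rest in part on SCC25, where both genes had no count in any PBS library. Within the shared flow cell both were called (adjusted p = 2.46e-10 and 9.48e-06). C2CD2 ranged over 13.7 to 25.7 CPM in SCC1 (median 22.6) and 0 to 0.0408 CPM in SCC25 (median 0.0104). In SCC6 with PBS, RIPK4 ranged over 32.4 to 59.1 CPM and ZBTB21 over 24 to 43.4 CPM. MX1, an antiviral GTPase induced by interferon, lies in the same stretch. By day from 0 to 5 it stood at 44.8, 44.8, 38.7, 59.3, 178 and 287 CPM in SCC1 and at 1.10, 0.767, 1.12, 0.681, 0.777 and 0.603 CPM in SCC25. IFIT1, an interferon-induced gene on another chromosome, stood at 20.7, 22.2, 17.6, 28.1, 96.8 and 154 CPM in SCC1 and at 9.22, 13, 17.5, 22.5, 38.8 and 73.1 CPM in SCC25. IFIT1 was thus higher on days 4 and 5 than on day 0 in both lines, while MX1 was so in SCC1 and not in SCC25. A second stretch of 21q22, from IFNAR2 to DONSON (chr21:34577587-34961012), held 9 genes tested, all called higher in SCC1 and 5 beyond 2-fold. It includes the interferon receptors above, and IFNGR2 overlaps TMEM50B, so their reads may be shared.

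On 11q13, a region often amplified in HNSCC, the direction was reversed. From TPCN2 to SHANK2 (chr11:68816400-70963623, GRCh37) 9 of 9 genes tested were called higher in SCC25, and 8 passed the 2-fold test. CCND1, cyclin D1, ranged over 249.99 to 354 CPM in SCC1 (median 312) and 1209 to 1372 CPM in SCC25 (median 1241). CCND1 had a log2 fold change of -2.05 ± 0.09 (SE), with an adjusted p of 1.46e-11. ANO1, a calcium-activated chloride channel, ranged over 0.0429 to 0.297 CPM in SCC1 (median 0.0787) and 399.7 to 515 CPM in SCC25 (median 446) (log2 fold change -11.96 ± 0.20 (SE), adjusted p = 8.23e-16), and over 5.62 to 7.57 CPM in SCC6. FADD, an adaptor of death receptors, and SHANK2, a scaffold protein, had medians of 27.4 CPM in SCC1 and 192 CPM in SCC25 for FADD, and of 3.28 CPM in SCC1 and 113 CPM in SCC25 for SHANK2. FGF19 had no count in SCC1 and 0.775 to 1.64 CPM in SCC25 (median 1.12), at least 14.6-fold higher. CDKN2A, the p16 tumour suppressor gene of 9p21, ranged over 7.88 to 14.4 CPM in SCC1 (median 11.7) and 0.306 to 0.688 CPM in SCC25 (median 0.556). CDKN2A had a log2 fold change of 4.4 ± 0.19 (SE), with an adjusted p of 1.52e-11. Of the 12 genes tested on the list of 11q13 and 9p21, 9 were called higher in SCC25 and 3 higher in SCC1 (background 37.7% and 37.3%). Beyond 2-fold were 9 and 1 (background 14.9% and 8.65%). These 4 stretches were chosen after their values were seen. DNA copy number was not analysed here, and its part in these differences was not tested.

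**Figure D4:**
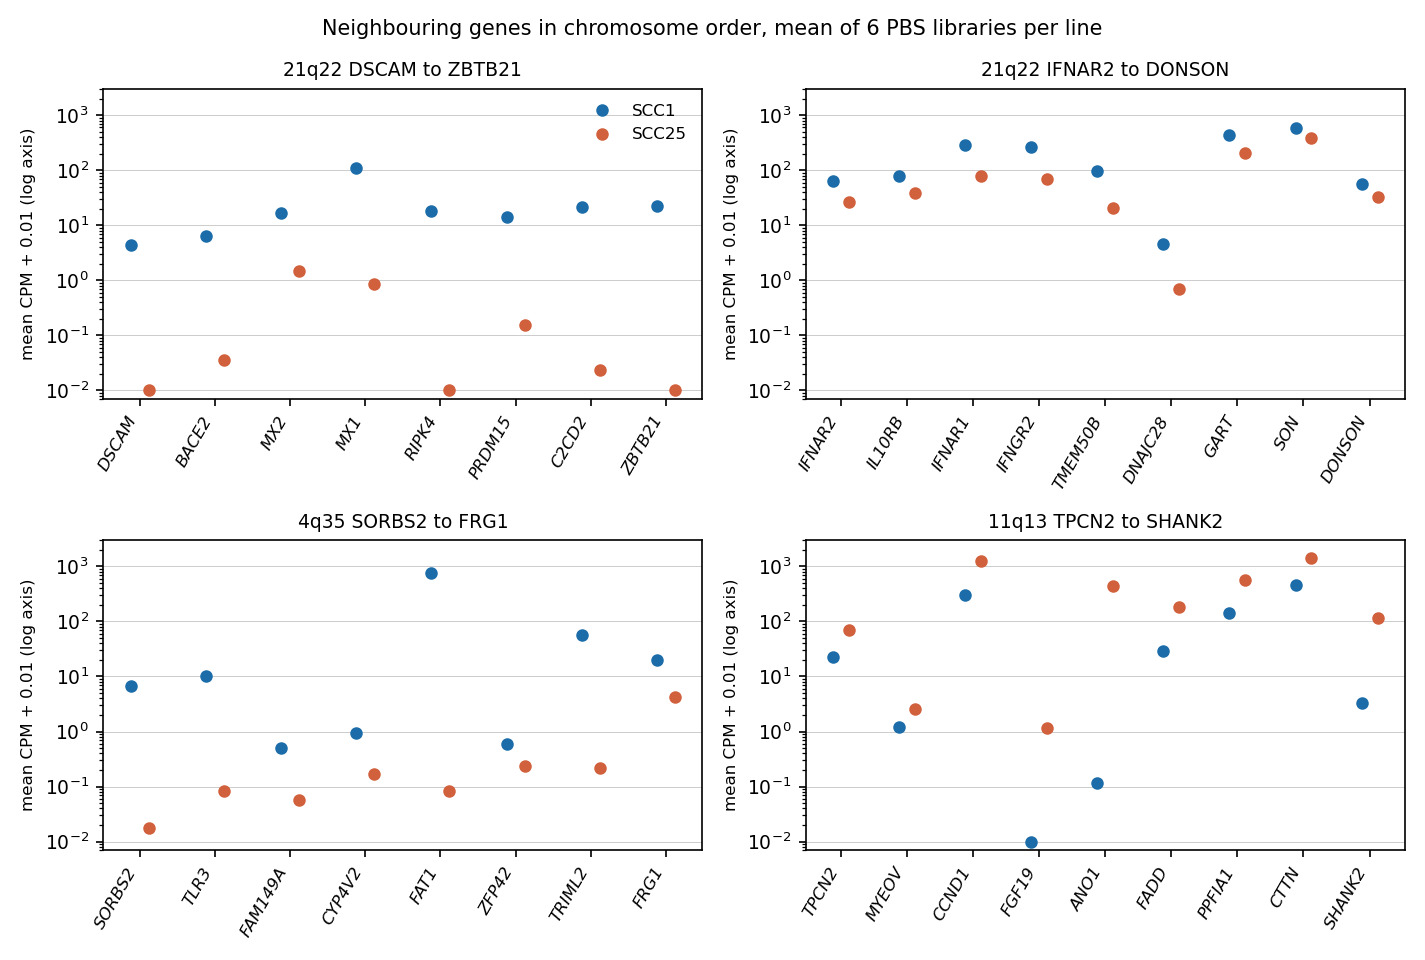
Mean CPM + 0.01 of 6 PBS libraries per line on a log axis, for neighbouring protein-coding genes in chromosome order in 4 stretches, blue for SCC1 and orange for SCC25. All genes of both 21q22 stretches and of 4q35 lie higher in SCC1, and all genes of 11q13 lie higher in SCC25.

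The rest of the genes with the most extreme fold changes belonged to many kinds. Toward SCC1 they were LAMB2, a laminin chain, at 71.8 to 82.2 CPM in SCC1 (median 74.5) and 0 to 0.0221 CPM in SCC25 (median 0), CSF3, the granulocyte growth factor G-CSF, the class II gene HLA-DQB1, and 2 transcripts without a gene name (RP11-269F21.3 and RP11-958N24.2). HLA-DQB1 is highly polymorphic, so its level is uncertain. CSF3 varied over the days, at 2.95, 8.35, 18.9, 45.3, 118 and 101 CPM in SCC1 from day 0 to day 5, and its call was lost with flow cell as a covariate (adjusted p = 0.0523). Toward SCC25 they were PNLIPRP3, a lipase-related gene, with no count in SCC1 and 26.2 to 49.8 CPM in SCC25 (median 34.3) (at least 451-fold higher), the cancer-testis genes MAGED4B (at least 283-fold) and HORMAD1 (at least 199-fold), G0S2, a lipolysis inhibitor, at 0 to 0.0425 CPM in SCC1 (median 0.0107) and 83.2 to 111 CPM in SCC25 (median 97.7), TENM2, a teneurin, at 0.0214 to 0.219 CPM in SCC1 (median 0.155) and 483 to 562 CPM in SCC25 (median 514), SFRP1, a WNT inhibitor, at 0.106 to 0.210 CPM in SCC1 (median 0.154) and 545 to 598 CPM in SCC25 (median 558), and TNFRSF8, the CD30 receptor, at 0 to 0.0233 CPM in SCC1 (median 0) and 26.5 to 40.8 CPM in SCC25 (median 32.5), beside CDH11, ANO1 and CALML3. MAGED4B has a near-identical copy, MAGED4, so its level is uncertain.

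Few genes passed the test for a change of the line difference over the days. On simulated counts the test recovered 4% of changes of 0.5 and 62% of changes of 1 on the log2 scale, so it misses many small changes. The difference on days 3 to 5 was compared with that on days 0 to 2 (3 libraries per line and period), and 7 of 20589 genes were called (0.034%), 1 upward and 6 downward, while 2211 had an unadjusted p under 0.05. The count was 431 in the same test with no filter on low counts, 277 with DESeq2, also without that filter, and 370 with day as a number over 19032 genes. Without the SCC1 library of day 2 it was 444, and without any other single library it was 0 to 7. KLF12, a transcriptional repressor, stood at 16.7, 17.8, 15.4, 10.5, 10.1 and 10.3 CPM in SCC1 and at 19.0, 16.4, 16.0, 21, 23.4 and 19.2 CPM in SCC25 on days 0 to 5. The lines overlapped on days 0 to 2 and not on days 3 to 5 (change -1.0 ± 0.14, adjusted p = 0.0362). CBX2, a Polycomb subunit, stood in SCC1 at 4.06, 3.51 and 3.54 CPM on days 0 to 2 and at 1.82, 1.76 and 1.95 CPM on days 3 to 5 (change -0.89 ± 0.13, adjusted p = 0.0434). TIPARP, a target of the aryl hydrocarbon receptor, and FBXO30, a ubiquitin ligase subunit, changed by -0.61 (adjusted p = 0.0434) and -0.72 (adjusted p = 0.0334). Each of these 4 calls was lost in most fits that left out a single library. KLF12, CBX2 and TIPARP were called in 1 of 12 such fits, the one without the SCC1 library of day 2, and FBXO30 in 2 of 12, that one and the one without the SCC1 library of day 3. With day as a replicate block all 4 were lost (adjusted p = 0.107 for each).

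Several identity genes varied over the days within a line. VIM stood at 85.7, 115, 219, 253, 248 and 148 CPM in SCC1 and at 1163, 1175, 1216, 974, 821 and 726 CPM in SCC25 from day 0 to day 5 (change 1.13, adjusted p = 0.311). The lowest SCC25 library was day 5 and the highest SCC1 library was day 3. ZEB1 stood at 0.850, 2.18, 3.17, 3.35, 2.20 and 2.91 CPM in SCC1 and at 11.3, 10.8, 9.51, 10.4, 7.87 and 7.87 CPM in SCC25. KRT5 in SCC1 was lowest on day 3, at 290.5 CPM, and in SCC25 highest on day 5, at 6656 CPM. KRT13 was higher on each day than on the day before in SCC25, at 5.00, 9.81, 16.9, 31.0, 64.7 and 102 CPM, and stood at 7.37, 6.28, 1.65, 1.48, 1.34 and 6.74 CPM in SCC1. On day 0 it was higher in SCC1, and from day 1 it was higher in SCC25 (change -3.32, adjusted p = 0.204).

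**Figure D5:**
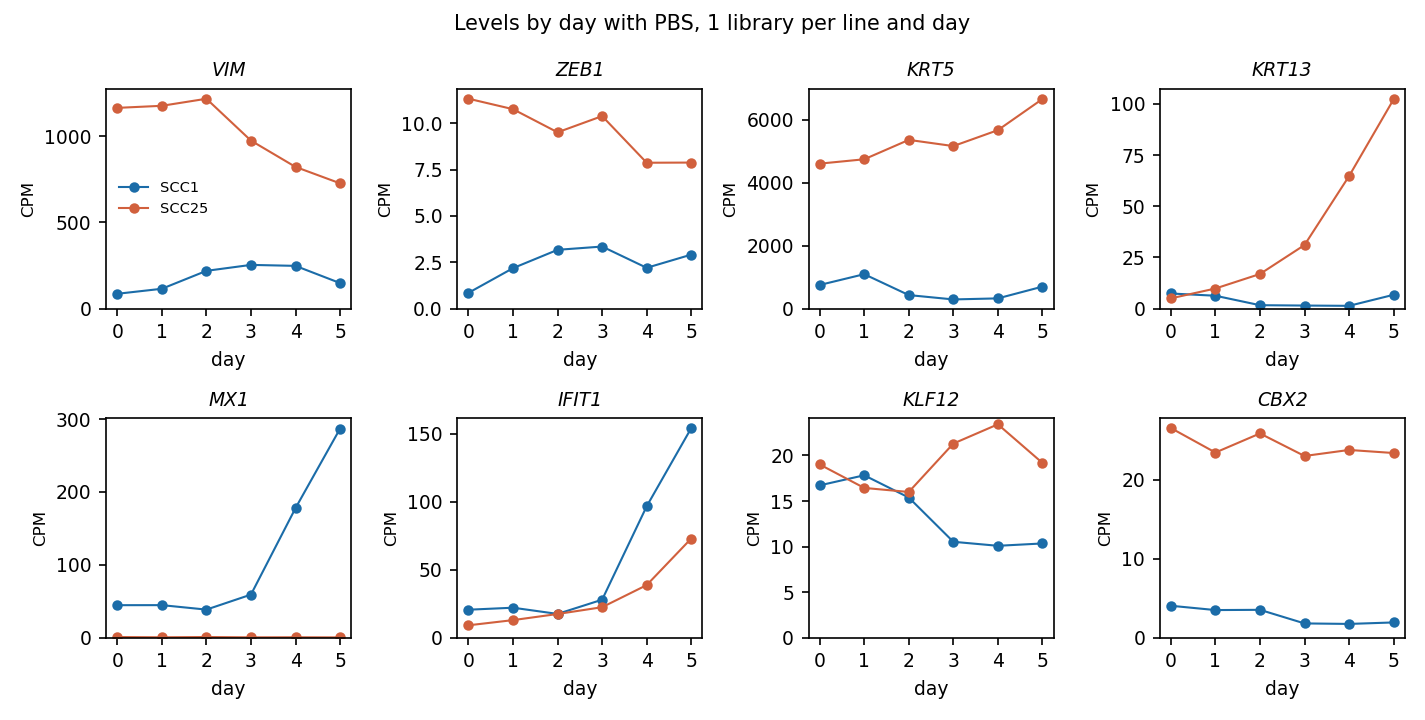
CPM by day with PBS for 8 genes, 1 library per line and day, blue for SCC1 and orange for SCC25, each axis starting at 0. VIM, ZEB1, KRT5 and CBX2 stay apart on all days, KRT13 crosses between days 0 and 1, KLF12 parts after day 2, and MX1 is higher on days 4 and 5 in SCC1 while IFIT1 is higher on those days in both lines.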

How the data were processed

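Bulk poly(A) RNA-seq of HNSCC lines was used, and 12 of 33 libraries entered the comparison. The authors quantified transcripts with Salmon (version 0.8.2 in the submitters' processing notes, which name hg19 and GRCh37) and imported them with tximport. The deposited values are estimated counts per gene symbol, not scaled between libraries, and 63.2% of them are whole. Counts were rounded, filtered with filterByExpr, scaled by TMM and tested with edgeR 4.0.16 in R 4.3.3 (quasi-likelihood F test; glmTreat with a log2 bound of 1; two-sided; Benjamini-Hochberg adjusted p under 0.05). Log2 fold changes are SCC1 over SCC25. Each SE was derived as the absolute log2 fold change over the square root of the F statistic, and is thus approximate. Alternatives used DESeq2 1.42.0. The fits were tested on simulated counts. A count of 3 per library was the floor, at most 0.0798 CPM in SCC1 and 0.0729 in SCC25, and it covers counting error only. Precision is set by the counts of each gene, and PCR copies were not separated. Gene positions came from GENCODE on GRCh37, which is not the authors' annotation, and promoters from RefSeq. Members and lists were chosen with earlier results of these data known. Named genes were those the study discusses, fixed anchor genes, up to 6 of largest change per list and direction, the 10 largest in each direction, and up to 5 in each direction that changed over the days. Some of these are not reported here, and MX1, IFIT1, TLR3 and those in the closing section outside these groups were added after their values were seen.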

Additional observations from a re-analysis of the deposited data

Results flagged for a closer look

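In each line, a library was marked for a gene where its gap to the nearest of the other 5 exceeded Dixon's 95% critical share of the whole range of the 6. Of 334 groups of 6 examined, 22 were marked, and chance alone marks about 1 in 20. In SCC1 on day 0 this held for TWIST1 at 9.90 CPM (above the other 5, at 7.68 to 8.39), TNFRSF19 at 0.361 CPM (above the other 5, at 0.131 to 0.214) and ANO1 at 0.297 CPM (above the other 5, at 0.0429 to 0.0926). In SCC1 on day 1 this held for CDH2 at 37.2 CPM (above the other 5, at 25.1 to 29.5) and KLK5 at 0.798 CPM (above the other 5, at 0.257 to 0.443). In SCC1 on day 5 this held for FGFR3 at 3.76 CPM (above the other 5, at 2.54 to 2.76), TNC at 44.3 CPM (above the other 5, at 22.6 to 30.4), BTC at 8.18 CPM (above the other 5, at 4.38 to 5.37), NGFR at 1.38 CPM (above the other 5, at 0.276 to 0.686) and KRT6B at 3.35 CPM (above the other 5, at 0.745 to 1.69). In SCC25 on day 0 this held for EGFR at 946 CPM (below the other 5, at 1042 to 1088), CLDN1 at 126 CPM (below the other 5, at 176 to 204), KRT8 at 417 CPM (below the other 5, at 580.0 to 669), EPHA4 at 17.3 CPM (above the other 5, at 11.1 to 13.1) and EPHA3 at 17.1 CPM (below the other 5, at 26.4 to 31.9). In SCC25 on day 3 this held for TGFA at 96.2 CPM (above the other 5, at 85.5 to 88.7) and HOXB2 at 1.31 CPM (above the other 5, at 0.852 to 1.0). In SCC25 on day 5 this held for KRT14 at 4409 CPM (above the other 5, at 2882 to 3442), IVL at 1.12 CPM (above the other 5, at 0.286 to 0.589), RAB25 at 6.30 CPM (above the other 5, at 4.18 to 4.97), KRT16 at 194 CPM (above the other 5, at 67.4 to 114) and MSLN at 28.1 CPM (above the other 5, at 21 to 22.9). Of the marked libraries, 5 were SCC25 of day 0, 5 SCC25 of day 5 and 5 SCC1 of day 5.

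For 7 genes the line difference on days 3 to 5 differed from that on days 0 to 2 by edgeR's quasi-likelihood test, on the log2 scale. ZNF816-ZNF321P changed by 9.89 (adjusted p = 0.0317), at no more than 0.551 CPM in any of the 12 libraries. TIPARP changed by -0.61 (adjusted p = 0.0434). FBXO30 changed by -0.72 (adjusted p = 0.0334). CBX2 changed by -0.89 (adjusted p = 0.0434). KLF12 changed by -1.0 (adjusted p = 0.0362). GLI2 changed by -1.76 (adjusted p = 0.0434). CH507-42P11.6 changed by -6.34 (adjusted p = 0.0317).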

How the results depend on the processing

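All 4 counts of genes over the whole comparison stayed within 1.5 times their value under each alternative run. Genes changing over the days numbered 277 with DESeq2, 4 with DESeq2 size factors, 431 with no filter, 370 with day as a number, 0 with a replicate block and 0 to 444 without single libraries. With DESeq2 the counts beyond 2-fold became epithelial adhesion and polarity toward SCC25 1, TGF-beta and BMP receptors toward SCC1 1, integrin subunits toward SCC1 0, endothelial and leukocyte markers toward SCC1 0, melanocyte and neural markers toward SCC25 3. With no filter on low counts the counts beyond 2-fold became HOX genes toward SCC1 1, endothelial and leukocyte markers toward SCC25 4, melanocyte and neural markers toward SCC25 3. With days 1 to 5 only the counts beyond 2-fold became TGF-beta and BMP receptors toward SCC1 1. With day as a replicate block the counts beyond 2-fold became squamous transcription factors toward SCC1 5. With flow cell as a covariate the counts beyond 2-fold became mesenchymal effectors toward SCC1 2, TGF-beta and BMP receptors toward SCC1 1, integrin subunits toward SCC1 0, simple epithelial keratins toward SCC1 1, HOX genes toward SCC1 2, endothelial and leukocyte markers toward SCC1 0, endothelial and leukocyte markers toward SCC25 1. With all 33 libraries the counts beyond 2-fold became epithelial adhesion and polarity toward SCC25 1, HOX genes toward SCC1 1, melanocyte and neural markers toward SCC25 2. Within 1 flow cell the counts beyond 2-fold became epithelial adhesion and polarity toward SCC1 6, epithelial adhesion and polarity toward SCC25 4, mesenchymal transcription factors toward SCC1 1, TGF-beta and BMP receptors toward SCC1 1, simple epithelial keratins toward SCC1 1, HOX genes toward SCC1 1, genes of the 11q13 and 9p21 regions toward SCC1 2, proliferation toward SCC1 2, endothelial and leukocyte markers toward SCC1 0. Without single libraries the ranges that moved were epithelial adhesion and polarity toward SCC25 1 to 2, squamous transcription factors toward SCC1 3 to 5, HOX genes toward SCC1 0 to 1, genes of the 11q13 and 9p21 regions toward SCC1 1 to 2, proliferation toward SCC1 0 to 1, endothelial and leukocyte markers toward SCC1 0 to 1, melanocyte and neural markers toward SCC1 1 to 2, melanocyte and neural markers toward SCC25 1 to 2. Same-day libraries of the lines correlated at -0.02 to 0.16 in their deviations, and 3 of 6 days matched their own day best, so day was not taken as pairing the samples. The replicate block gave 4559 genes beyond 2-fold, 4424 of them among the 4484. It called FN1 (0.25, adjusted p = 0.00314) and IFIT1 (0.78, adjusted p = 0.00127), which were not called without it (adjusted p = 0.147 and 0.16). Among the named genes, directions reversed for VEGFA, HBEGF, KRT10 and IFIT1, none of which was called over the 12 libraries. Over all genes, 3285 of the 3286 shared 2-fold calls kept their direction with flow cell as a covariate. VEGFA gave -0.127 to 0.0421 without single libraries, above 0 without the SCC1 library of day 0 or the SCC25 library of day 5, and 0.43 within 1 flow cell. HBEGF gave -0.104 to 0.264 without single libraries, below 0 in 3 cases, -0.0926 with the replicate block and -0.44 with flow cell as a covariate. KRT10 gave 0.0803 with flow cell as a covariate. IFIT1 gave -1.91 there (adjusted p = 0.0938) and -1.52 within 1 flow cell, against 0.96 over the 12 libraries. Within 1 flow cell IFIT1 was thus called higher in SCC25 (adjusted p = 0.0232). The causes were not tested. Depth limits genes near the floor of 3 counts per library, where fitted fold changes depend on the prior count.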

Other observations

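Other neighbouring genes also shared a direction. Protein-coding genes were taken in chromosome order, skipping those too low to be tested. Runs of 5 or more tested genes that all passed the 2-fold test in 1 direction numbered 32, and the longest held 11 tested genes on chromosome 19, CLEC11A and 10 kallikrein genes, all higher in SCC25. There KLK10 ranged over 0.769 to 1.44 CPM in SCC1 (median 0.988) and 11.9 to 32.3 CPM in SCC25 (median 14.9) (log2 fold change -4.04 ± 0.27 (SE), adjusted p = 2.18e-09) and KLK6 over 0.208 to 0.536 CPM in SCC1 (median 0.461) and 2.39 to 4.97 CPM in SCC25 (median 3.17). KLK6 had a log2 fold change of -3.08 ± 0.24 (SE), with an adjusted p of 1.09e-08. A run of 10 tested genes from ZNF703 to BAG4 on chromosome 8 was higher in SCC25 too, with ZNF703, a cofactor amplified in some carcinomas, at 1.98 to 3.86 CPM in SCC1 (median 2.91) and 32.8 to 42.6 CPM in SCC25 (median 34.7) (log2 fold change -3.67 ± 0.14 (SE), adjusted p = 3.64e-12) and EIF4EBP1, a translation repressor, at 33.8 to 43.4 CPM in SCC1 (median 38.5) and 103 to 150.3 CPM in SCC25 (median 138). EIF4EBP1 had a log2 fold change of -1.78 ± 0.09 (SE), with an adjusted p of 1.24e-10. By chromosome, the median log2 fold change of protein-coding genes ran from -0.66 on chromosome 14 (448 genes) and -0.40 on chromosome 9 (535 genes) to 0.44 on chromosome 7 (640 genes) and 0.45 on chromosome 3 (766 genes).

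MSLN, mesothelin, a surface protein found on several carcinomas, ranged over 2.14 to 2.73 CPM in SCC1 (median 2.49) and 21 to 28.1 CPM in SCC25 (median 22) (log2 fold change -3.20 ± 0.09 (SE), adjusted p = 2.11e-13), and FOLR1, a folate receptor, over 0 to 0.127 CPM in SCC1 (median 0.0342) and 1.38 to 3.55 CPM in SCC25 (median 1.69). FOLR1 had a log2 fold change of -5.23 ± 0.44 (SE), with an adjusted p of 3.71e-08. Genes detected in only 1 line were more numerous in SCC25. By a rule set after values were seen (at most 3 counts in every library of a line and at least 1 CPM in every library of the other), 124 genes were on in SCC25 and near 0 in SCC1 (104 protein coding), and 38 were on in SCC1 and near 0 in SCC25 (33 protein coding). In the 250 bases before the RefSeq start, the median number of CG pairs was 16 for 75 matched genes of the first kind and 9 for 25 of the second, beside 10 over all windows.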
